A study of Mus musculus with 10 samples.

Results

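The 5 genes described here, Pdgfa, Pdgfb, Pdgfc, Pdgfd and Ntf3, encode the platelet-derived growth factor chains and neurotrophin 3. They are ligands that endothelial cells (ECs) of bone can send to their neighbours, were picked by name with earlier results of these data known, and were followed among 22828 genes that had unique molecular identifiers (UMIs, 1 per captured RNA molecule) in at least 3 cells. The study asked how the capillaries of bone differ with age and with drugs that act on bone remodelling. Single ECs were sorted from femur and tibia of C57BL/6 mice that carry the Cdh5-mTnG reporter (named after Cdh5, the gene of the endothelial adhesion protein VE-cadherin), as cells positive for GFP and tdTomato after haematopoietic cells had been depleted. There were 5 groups of 2 libraries: juvenile mice of 3 weeks (males and females), adult females of 12 weeks, aged females of 75 weeks, females of 12 weeks given parathyroid hormone (PTH, 100 µg per kg daily), and females of 12 weeks given alendronate (2 mg per kg every other day). PTH is a hormone given to build bone and alendronate is a bisphosphonate that blocks resorption by osteoclasts. The label of the adult group names no treatment. Mice of a group were pooled and each experiment was done once, so the spread between 2 libraries of a group is technical. P-values between groups measure that spread. Those between classes measure how class differences varied over the libraries, which includes changes with age and drug. Neither measures variation between mice.

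The platelet-derived growth factors are secreted as dimers that bind the receptor kinases PDGFRA and PDGFRB. PDGFA and PDGFB leave the cell as active ligands, whereas PDGFC and PDGFD carry a CUB domain that proteases outside the cell must remove first. PDGFB made by endothelium is known for drawing PDGFRB-bearing pericytes and smooth muscle cells onto new vessels. Neurotrophin 3 binds TrkC, the product of Ntrk3, and supports sensory and sympathetic neurons.

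On the mouse build GRCm38, Pdgfa lies at chr5:138976014-138997370 on the minus strand, Pdgfb at chr15:79995874-80014977 (minus), Pdgfc at chr3:81036416-81214040 (plus), Pdgfd at chr9:6168584-6378850 (plus) and Ntf3 at chr6:126101412-126166910 (minus). Pdgfa shares exon bases with the antisense gene 6330403L08Rik and Pdgfc with the antisense gene Gm16000. The counting is not stated to use strand, so reads of these pairs may not be told apart. RefSeq start sites of build GRCm38.p6 were given for 4 of the 5 members, with 2 sites each for Pdgfa and Ntf3. The 250 bases before the start of the 2 members with the sharpest endothelial pattern, and of Pdgfa, are shown because the results below turn on where these genes were on. Capitals mark GGGCGG, the letters bound by Sp factors, on either strand (CCGCCC on the other), and TATAAA.
Ntf3, chr6:126166745-126166994, minus strand: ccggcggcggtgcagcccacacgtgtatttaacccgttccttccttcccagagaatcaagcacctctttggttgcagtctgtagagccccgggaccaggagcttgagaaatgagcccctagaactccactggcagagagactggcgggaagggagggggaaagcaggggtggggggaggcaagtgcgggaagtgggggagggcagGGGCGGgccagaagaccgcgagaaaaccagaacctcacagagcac
Ntf3, second start, chr6:126164961-126165210, minus strand: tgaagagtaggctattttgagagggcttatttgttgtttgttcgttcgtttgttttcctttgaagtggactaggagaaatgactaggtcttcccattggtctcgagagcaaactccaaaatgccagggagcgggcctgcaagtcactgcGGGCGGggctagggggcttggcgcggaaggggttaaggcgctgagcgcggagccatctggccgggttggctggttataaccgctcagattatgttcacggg
Pdgfd, chr9:6168236-6168485, plus strand: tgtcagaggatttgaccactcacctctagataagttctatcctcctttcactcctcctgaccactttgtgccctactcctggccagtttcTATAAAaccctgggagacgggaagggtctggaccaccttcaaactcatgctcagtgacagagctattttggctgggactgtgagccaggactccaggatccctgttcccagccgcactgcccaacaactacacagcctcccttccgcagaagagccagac
Pdgfa, chr5:138994945-138995194, minus strand: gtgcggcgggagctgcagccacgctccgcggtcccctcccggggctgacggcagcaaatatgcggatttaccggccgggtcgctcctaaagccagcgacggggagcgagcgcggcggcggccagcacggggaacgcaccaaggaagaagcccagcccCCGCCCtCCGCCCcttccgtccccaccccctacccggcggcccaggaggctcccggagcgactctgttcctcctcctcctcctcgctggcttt
The Pdgfd window held TATAAA 160 bases before the start, as did 12.4% of all 32851 windows of this length, and no GGGCGG, which 32.7% of windows held. It had 3 CG pairs against a median of 6. The Ntf3 windows each held 1 GGGCGG and no TATAAA, with 11 and 14 CG pairs. The Pdgfa window was the richest in G and C, 72.4% against a median of 52.4%, and held 2 GGGCGG matches on the other strand. Of the other motifs searched, CANNTG (held by 66.2% of windows) was absent from the Pdgfa and Pdgfd windows and present once or more in both Ntf3 windows. These matches are descriptions of letters only.

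Of 47466 barcodes, 46283 had 500 to 6000 genes and under 25% mitochondrial UMIs, and 43657 of these lay in endothelial clusters. Library totals ran from 10653583 to 28419323 UMIs and median depths from 3075 to 5149 UMIs per cell, the aged libraries being the deepest per cell. The 2 aged libraries stood apart: they alone held UMIs of 276 genes whose symbols begin with U, 1.52% and 1.54% of their UMIs, which were left out. Pairs of libraries shared 10 to 88 cell barcodes where neither was aged, and 3 or 4 where at least 1 was. The sources used here do not state a difference in how the aged libraries or their tables were made. Any such difference cannot be told apart from age in them. Juvenile mice differed from adults also in sex. Clusters were named from marker lists: 17066 sinusoidal-like, 8268 metaphyseal-like, 1882 tip-like, 7449 arterial-like, 4793 type R-like and 714 proliferating-like cells, with 3485 in no class. The 6 endothelial markers summed to 4603 to 7646 CPM over the classes and libraries, and none was at 0. Type R is the post-arterial capillary that the study describes, with Aqp7 among its markers. Timp4 was taken as a marker here. Classes were made without the 5 members and without the genes of their pathway. The share of type R-like cells among ECs was 1.79% and 1.89% in the juvenile libraries, 6.61% and 6.99% in adult, 19.3% and 19.9% in aged, 7.31% and 11.04% in PTH, and 18.1% and 18.8% in alendronate libraries.

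In ECs there were 19838 UMIs of Pdgfb, 9524 of Pdgfd, 4888 of Pdgfa, 828 of Ntf3 and 32 of Pdgfc. At least 1 UMI was seen in 28.6% of ECs for Pdgfb, 16.4% for Pdgfd, 8.36% for Pdgfa, 1.58% for Ntf3 and 0.0733% for Pdgfc. Pdgfc was thus at the edge of detection: its 32 UMIs came from 32 cells, 16 of them in the juvenile libraries, where its level was 0.446 and 0.563 CPM (UMI counts-per-million of all UMIs in a sum) against 0 to 0.319 in the other 8 libraries. It did not pass the filter on low counts and was not tested. The other 4 members passed in every class, except Ntf3, which passed only in type R-like cells when groups were compared within a class. CPM values were scaled by trimmed mean of M-values (TMM) where a test follows, so they compare a gene across samples and are not corrected for how well each gene is captured.

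**Figure D1:**
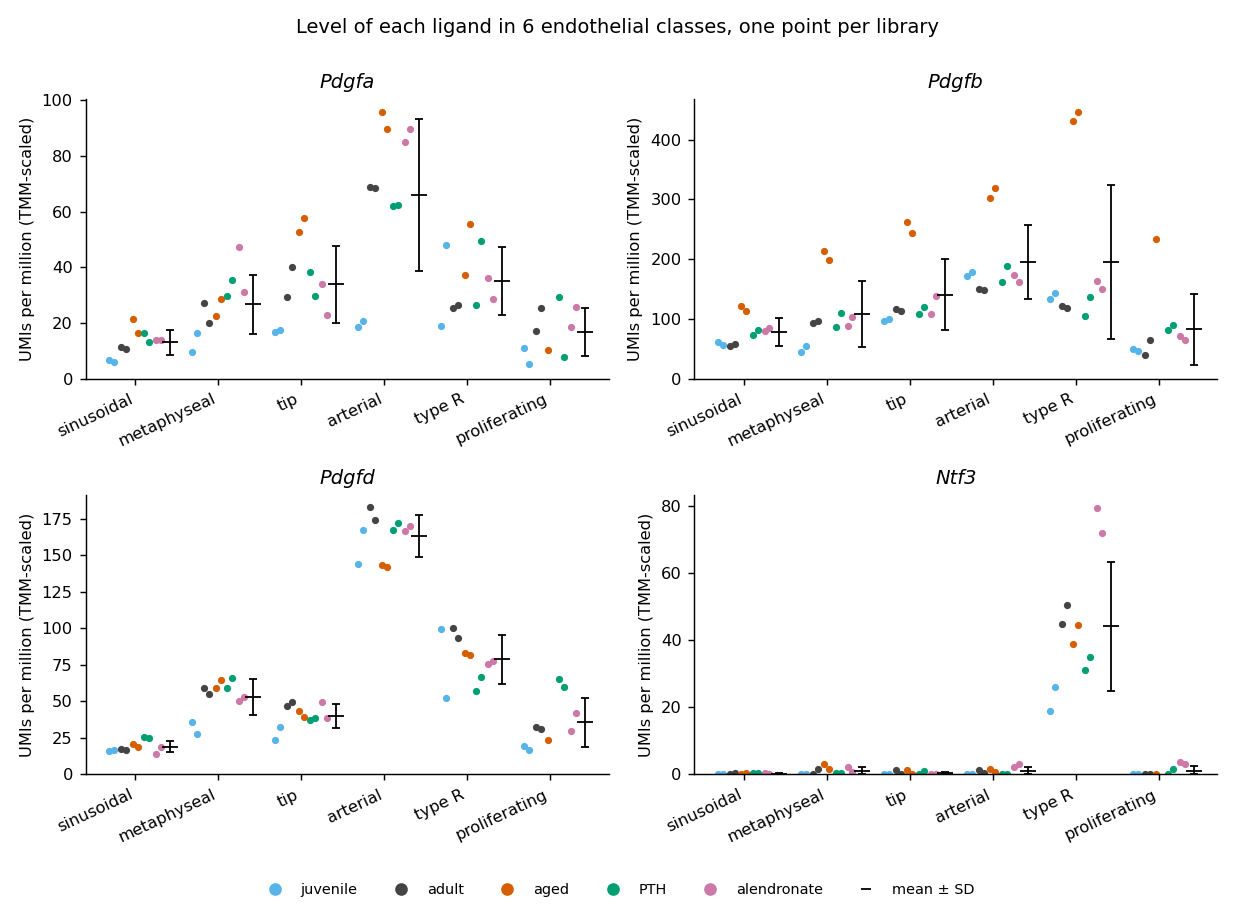
Level of 4 ligands in CPM (TMM-scaled, linear axis from 0, a different range in each panel) in 6 endothelial classes, with 1 point per library coloured by group and the mean ± SD over libraries in black. Pdgfd and Pdgfa were highest in arterial-like cells, Pdgfb was high in arterial-like and type R-like cells, and Ntf3 was near 0 outside type R-like cells.

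The ligands differed in the class where they were highest: Pdgfd and Pdgfa were highest in arterial-like cells, Ntf3 was found in type R-like cells with little elsewhere, and Pdgfb was present in every class. Each class was tested against the mean of the others on UMIs summed per class and library, with edgeR's quasi-likelihood test and Benjamini-Hochberg adjustment, and a class was called where the log2 difference exceeded 1 with an adjusted p under 0.05. Under this rule 11.6% of 11459 genes were called in arterial-like, 3.66% in metaphyseal-like, 8.85% in proliferating-like, 13.3% in sinusoidal-like, 6.94% in tip-like and 13.1% in type R-like cells.

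Pdgfa, the ligand of PDGFRA-bearing mesenchymal cells, averaged 66.0 ± 27.3 CPM (SD, n = 10 libraries) in arterial-like cells. It was 18.7 and 20.6 in the juvenile, 68.7 and 68.4 in the adult, 95.8 and 89.5 in the aged, 61.8 and 62.2 in the PTH and 84.9 and 89.8 in the alendronate libraries. The juvenile pair lay apart from the other 8. The arterial-like level was 2.89-fold that of the mean of the other classes (log2 1.53 ± 0.10 SE, adjusted p = 5.07e-21). The lowest class was sinusoidal-like at 13.0 ± 4.65 CPM (log2 -1.33 ± 0.12, adjusted p = 8.18e-15). In order of level, arterial-like was followed by type R-like (35.2), tip-like (33.8), metaphyseal-like (26.7), proliferating-like (16.7) and sinusoidal-like cells. The step from arterial-like to type R-like passed (log2 1.01 ± 0.13, adjusted p = 3.89e-09), as did that from metaphyseal-like to proliferating-like (0.70 ± 0.27, adjusted p = 0.0343). The steps between type R-like and tip-like, tip-like and metaphyseal-like, and proliferating-like and sinusoidal-like cells did not pass (adjusted p 0.942, 0.176 and 0.266).

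Pdgfb, the pericyte-recruiting ligand, had nearly equal means in arterial-like (195 ± 62.1 CPM) and type R-like cells (195 ± 130), and the 2 classes did not differ by the test (log2 0.09 ± 0.10 for arterial-like over type R-like, adjusted p = 0.559). Type R-like cells were above tip-like cells (141 ± 60.0, log2 0.41 ± 0.11, adjusted p = 0.00222), which were above metaphyseal-like cells (109 ± 55.2, log2 0.39 ± 0.11, adjusted p = 0.00523). Metaphyseal-like, proliferating-like (82.2) and sinusoidal-like cells (78.3 ± 23.1) followed, and neither step between these neighbours passed (adjusted p 0.0784 and 0.745). No class passed the log2 limit of 1 against the others, at 0.80 ± 0.08 for arterial-like, 0.69 ± 0.09 for type R-like and -0.75 ± 0.08 for sinusoidal-like cells. With the largest cluster of each class alone, the type R-like value was 1.19. The large SD in type R-like cells came with the aged pair, described below: over the other 8 libraries the level was 134 ± 18.7 CPM in type R-like and 166 ± 14.1 in arterial-like cells. In a fit without both aged libraries, the differences of these 2 classes from the others were 0.52 and 0.91, and for Pdgfa in arterial-like, Pdgfd in arterial-like and Ntf3 in type R-like cells they were 1.52, 2.09 and 6.19.

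Pdgfd, which binds PDGFRB once its CUB domain is removed, was the most arterial of the members. Its level in arterial-like cells was 163 ± 14.5 CPM, between 142 and 183 in all 10 libraries, and 51.0% of its UMIs in classed cells came from this class, which held 17.6% of all UMIs. The arterial-like level was 4.05-fold that of the other classes (log2 2.02 ± 0.07, adjusted p = 2.14e-33). The lowest arterial-like library lay above the highest library of each other class. Type R-like cells came next (78.7 ± 16.5, log2 1.08 ± 0.10 below arterial-like, adjusted p = 3.71e-14), then metaphyseal-like (52.9 ± 12.3) and tip-like cells (39.9 ± 8.10), and each of these steps passed (adjusted p 2.34e-05 and 0.00729). Tip-like and proliferating-like cells (35.5) did not differ by the test (adjusted p = 0.509). Sinusoidal-like cells were lowest at 19.0 ± 3.70 (log2 -1.72 ± 0.09 against the others, adjusted p = 3.28e-25, and 0.88 ± 0.19 below proliferating-like, adjusted p = 6.49e-05).

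Among all genes tested, neighbouring pairs of classes were called at an adjusted p under 0.05 for 37.8% of genes between arterial-like and type R-like, 47.6% between tip-like and type R-like, 48.0% between metaphyseal-like and type R-like, 27.0% between metaphyseal-like and tip-like, 36.3% between metaphyseal-like and proliferating-like, 30.9% between tip-like and proliferating-like, and 50.0% between sinusoidal-like and proliferating-like cells.

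Ntf3, the ligand of TrkC, was measured almost wholly in type R-like cells. There it reached 19.0 and 26.1 CPM in the juvenile libraries (4 and 6 UMIs), 44.7 and 50.5 in adult (37 and 38 UMIs), 39.0 and 44.5 in aged (72 and 86 UMIs), 31.0 and 35.03 in PTH (20 and 78 UMIs) and 79.2 and 71.9 in alendronate libraries (202 and 197 UMIs). The alendronate pair was the highest and the juvenile pair the lowest, and no library of another class exceeded 3.72. Of the Ntf3 UMIs in classed cells, 740 (89.7%) came from type R-like cells, which held 8.66% of all UMIs. Pooled over libraries, the plain level was 52.1 CPM in type R-like cells (exact Poisson 95% interval 48.4 to 55.99, counting error only) against 1.18 in arterial-like (34 UMIs), 0.898 in metaphyseal-like (28), 0.910 in proliferating-like (4), 0.401 in tip-like (4) and 0.199 in sinusoidal-like cells (15). In the juvenile libraries the other 5 classes held no Ntf3 UMI; in juvenile sinusoidal-like cells, the most deeply covered, 0 of 21355445 UMIs allows up to 0.1405 CPM. The fitted difference between type R-like cells and the mean of the others was log2 6.03 ± 0.18 (adjusted p = 1.78e-36), a value that depends on how classes at or near 0 are handled, and against metaphyseal-like cells it was 5.50 ± 0.24 (adjusted p = 1.68e-28). Ntf3 passed the filter on low counts through its counts in type R-like cells, so these p-values add no support to the levels above. Sinusoidal-like cells were lower than the mean of the others, which holds the type R-like level (log2 -2.74 ± 0.50, adjusted p = 3.03e-06). On 15 UMIs, their pooled Poisson interval was 0.111 to 0.328 CPM. It overlapped that of tip-like (0.109 to 1.03) and of proliferating-like cells (0.248 to 2.33), and lay below that of metaphyseal-like (0.597 to 1.30) and of arterial-like cells (0.817 to 1.65).

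Ntf3 was also present in cells that were set aside as not endothelial. A cluster of 51 cells led by the smooth muscle genes Acta2, Rgs5 and Myl9 held 23 Ntf3 UMIs, 81.7 CPM, along with 398 CPM of Pdgfa and 132 of Pdgfb. The summed level of 7 mural marker genes in type R-like cells was 9.46 to 22.1 CPM in juvenile, 30.5 to 45.1 in adult, 18.6 to 46.7 in aged, 21.03 to 39.3 in PTH and 26.3 to 80.2 in alendronate libraries. In adult arterial-like cells the same list summed to 39.1 and 89.8, with 3 and 1 Ntf3 UMIs. When the 4509 of 4793 type R-like cells without any UMI of these 7 genes were taken alone, they held 688 of the 740 Ntf3 UMIs, and the mean plain level over libraries was 42.6 CPM against 43.3 in all type R-like cells. Of the 740 UMIs, 234 came from a type R-like cluster of 1451 cells led by Tagln. Tagln and Mustn1 were among its leading genes and among those of the mural cluster set aside. The part of mural RNA in the Ntf3 of type R-like cells was not tested. The 2 clusters of mesenchymal cells that were set aside held Pdgfd (110 and 28.0 CPM) and Pdgfa (67.2 and 23.3), and the first of them, of 206 cells led by Igfbp6, held 10 of the 45 Pdgfc UMIs of the series.

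**Figure D2:**
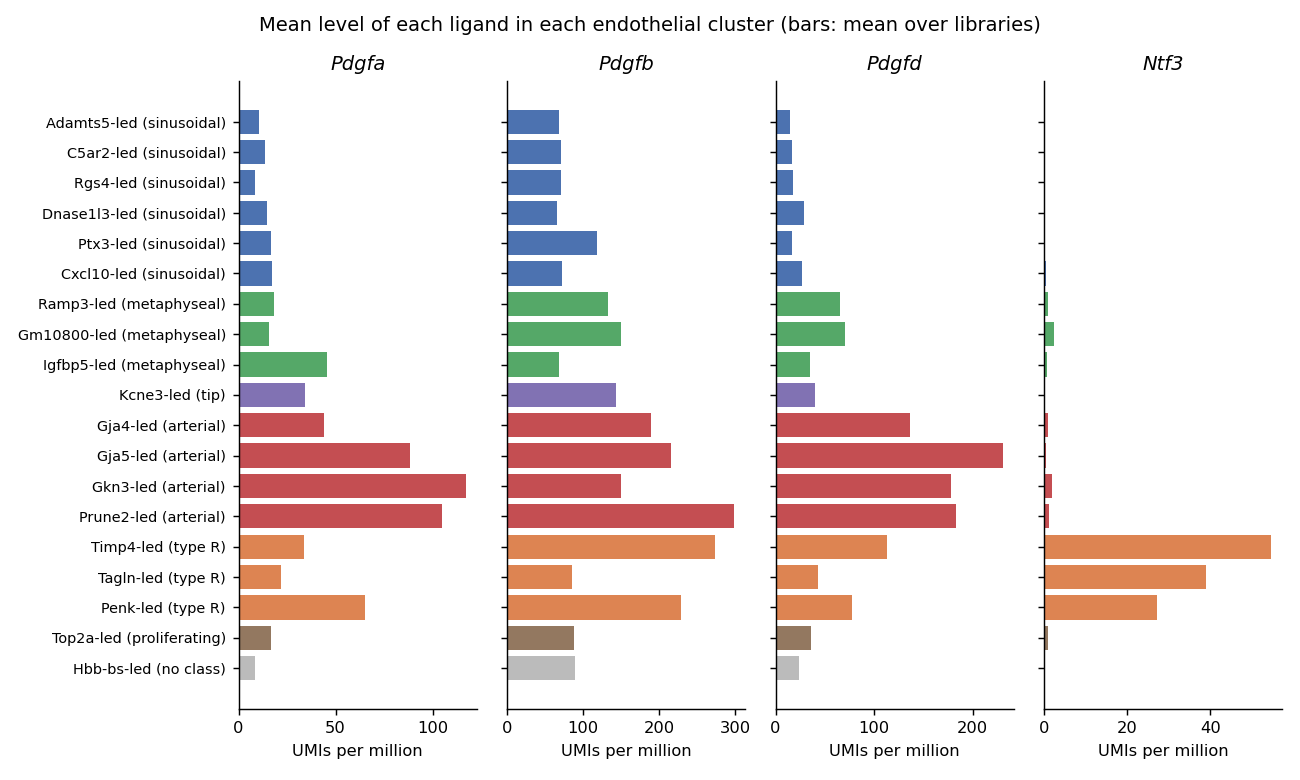
Mean plain level of 4 ligands in CPM (bars from 0, mean over libraries with at least 20 cells, a different range in each panel) in 19 endothelial clusters, named by their leading gene and coloured by class. The Gja5-led arterial cluster was highest for Pdgfd, the Gkn3-led for Pdgfa, the Prune2-led for Pdgfb and the Timp4-led type R cluster for Ntf3.

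Within classes the clusters differed in which ligand they carried. Of 3 type R-like clusters, the Timp4-led one (2925 cells) had 274 ± 195 CPM of Pdgfb, 113 ± 22.0 of Pdgfd and 54.7 ± 22.5 of Ntf3 (plain level, SD over libraries, n = 10). The Tagln-led cluster (1451 cells) had 85.7 ± 42.7 of Pdgfb, 43.4 ± 10.1 of Pdgfd and 39.0 ± 13.4 of Ntf3 (n = 9). The Penk-led cluster (417 cells) had 228 ± 141 of Pdgfb, 78.0 ± 19.6 of Pdgfd and 27.2 ± 28.7 of Ntf3 (n = 8), and with 65.4 ± 37.1 it had the highest mean of Pdgfa of the 3. Ntf3 was thus present in each type R-like cluster, and the ranges of SD of the 3 clusters overlapped. The 4 arterial-like clusters all carried Pdgfd, from 137 ± 10.4 in the Gja4-led cluster to 230 ± 43.2 in the one led by Gja5, which encodes a connexin of arteries. Pdgfa was lowest in the Gja4-led arterial-like cluster (43.9 ± 20.8) and 88.5 to 117 in the other 3. Of 3 metaphyseal-like clusters, the one led by Igfbp5 (2245 cells) had the least Pdgfb (67.9 ± 31.5) and Pdgfd (34.98 ± 12.5) and the most Pdgfa (45.7 ± 22.1). The clusters were cut from the same cells and were not tested.

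**Figure D3:**
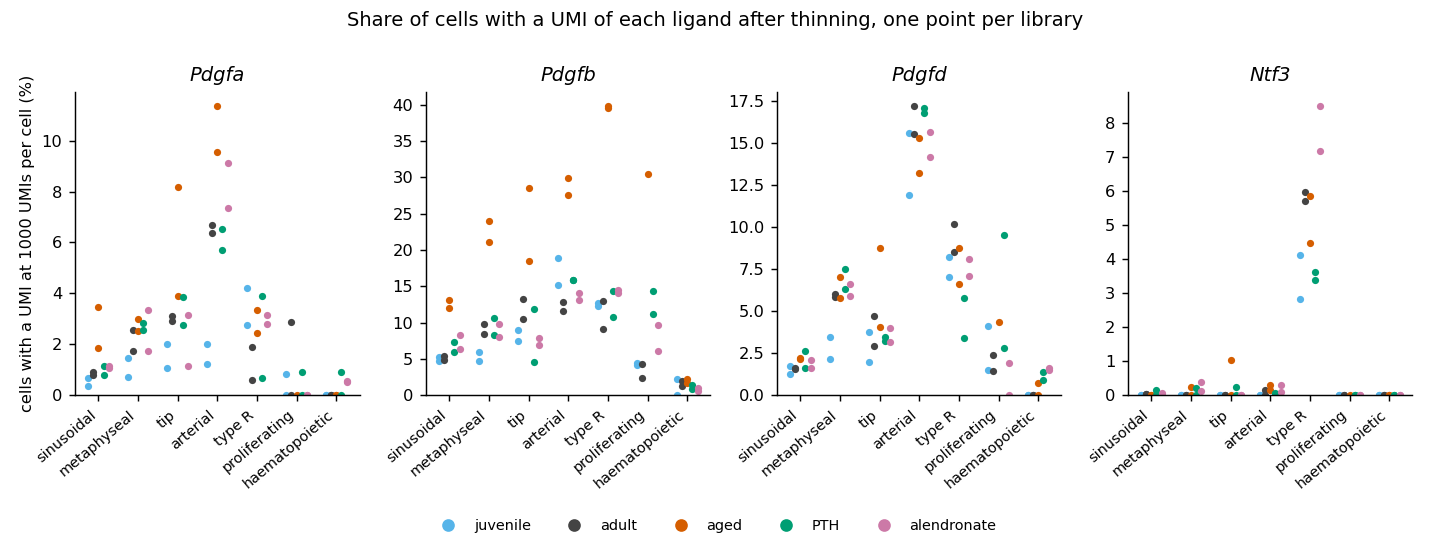
Share of cells with at least 1 UMI of each ligand after every cell was thinned to 1000 UMIs (percent, a different range in each panel), by class. Haematopoietic cells, set aside as not endothelial, are shown beside the classes. Each point is 1 library, coloured by group. Ntf3 was seen in 2.82% to 8.48% of type R-like cells and in no thinned haematopoietic cell.

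With depth made equal, Ntf3 was again highest in type R-like cells and Pdgfd and Pdgfa in arterial-like cells. After each cell was thinned to 1000 UMIs, Ntf3 was seen in 5.16% ± 1.80 of type R-like cells (SD over 10 libraries), in at most 0.125% of cells on average in any other class, and in 0 of 1344 haematopoietic cells, which at this depth allows up to 0.223% of thinned cells with a UMI. Pdgfd was seen in 15.3% ± 1.70 of arterial-like, 7.36% ± 1.88 of type R-like and 1.84% ± 0.41 of sinusoidal-like cells, against 0.611% ± 0.694 of haematopoietic cells. Pdgfa was seen in 6.59% ± 3.15 of arterial-like and 1.22% ± 0.88 of sinusoidal-like cells, against 0.194% ± 0.329 of haematopoietic cells. Pdgfb was seen in 18.0% ± 11.5 of type R-like, 17.5% ± 6.29 of arterial-like and 7.31% ± 2.96 of sinusoidal-like cells, against 1.31% ± 0.72 of haematopoietic cells. Before thinning, the median depth was 2479 UMIs in type R-like, 3310 in arterial-like, 4086 in sinusoidal-like and 5464 in haematopoietic cells, and 608 metaphyseal-like, 391 type R-like, 301 arterial-like, 70 sinusoidal-like, 13 proliferating-like, 5 tip-like and 23 haematopoietic cells with under 1000 UMIs were left out. Every ligand's share in its leading class lay above that in haematopoietic cells in all 10 libraries. Free RNA can give single UMIs in any cell, and its part in these shares was not tested. Without thinning, Ntf3 was seen in 11.1% of type R-like cells, against 0.425% of haematopoietic cells on average over libraries (7 of 1367 cells), and Pdgfd in 42.1% of arterial-like cells, against 3.04%.

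**Figure D4:**
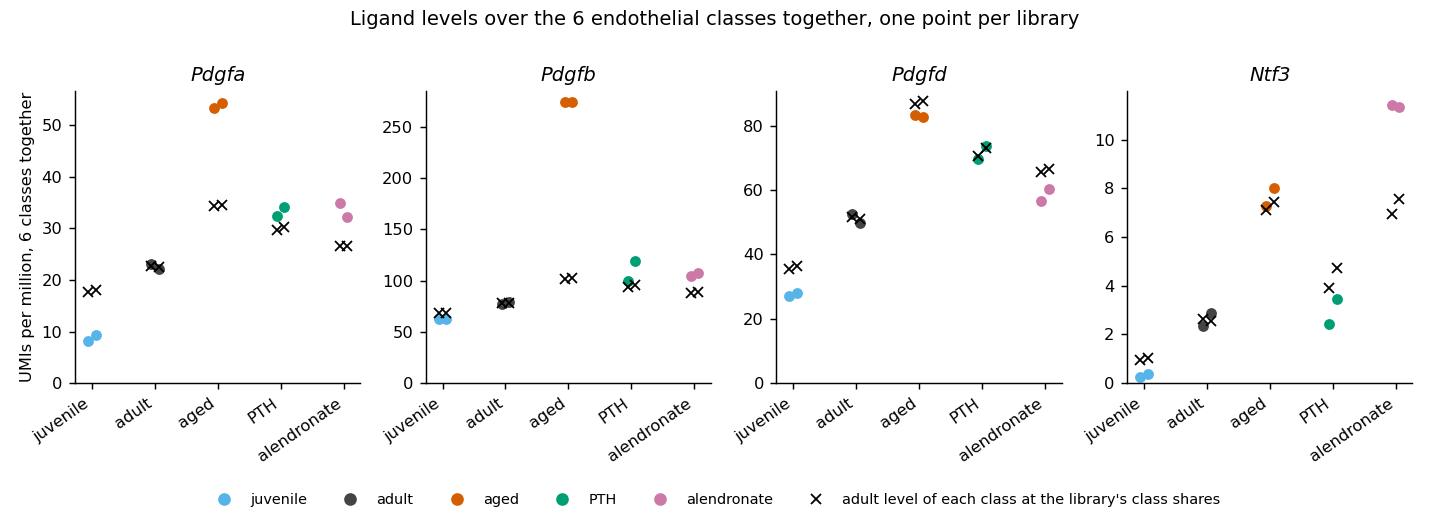
Plain level of 4 ligands in CPM (linear axis from 0, a different range in each panel) over the 6 endothelial classes together, 1 coloured point per library; black crosses give the level that the adult value of each class would make at that library's own shares of UMIs per class. Pdgfb in the aged libraries lay far above its crosses, and Ntf3 in the aged libraries lay near them.

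The first question of the design was age. Summed over all ECs, which mixes the level in each cell with the share of each class (in such sums fewer cells of a class and less RNA per cell cannot be told apart), all 4 testable ligands were lower in juvenile and higher in aged than in adult libraries. Of 15310 genes tested over all ECs, 43.0% were called between juvenile and adult and 73.7% between aged and adult, so a call by itself says little. Pdgfa was 8.81 and 10.0 CPM in juvenile, 22.7 and 23.5 in adult, and 43.9 and 44.1 in aged libraries (log2 -1.31 ± 0.09 and 0.91 ± 0.07, adjusted p = 2.3e-10 and 1.62e-10). Pdgfb was 67.4 and 67.5, 79.7 and 82.5, and 224 and 226 (log2 -0.28 ± 0.06 and 1.45 ± 0.05, adjusted p = 7.74e-04 and 7.97e-16). Pdgfd was 29.3 and 29.8, 51.4 and 53.0, and 67.0 and 67.4 (log2 -0.83 ± 0.06 and 0.34 ± 0.05, adjusted p = 2.24e-10 and 6e-06). Ntf3 was 0.250 and 0.383, 2.39 and 2.90, and 5.81 and 6.41 (log2 -3.04 ± 0.35 and 1.19 ± 0.19, adjusted p = 3.98e-07 and 8.49e-06). For each of the 4, the 3 ages did not overlap. The order of size differed: from adult to aged Pdgfb rose the most on the log2 scale, and from juvenile to adult Ntf3 did.

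Class shares and levels within classes went differently with each ligand. If every class had kept its adult level, the shares of UMIs per class in the aged libraries would have put Ntf3 at 2.80 times adult, and the measured plain level over the 6 classes was 2.93 times adult. The same sum put Pdgfd at 1.70 times adult, where 1.62 was measured. For Pdgfa it put 1.52 where 2.38 was measured, and for Pdgfb 1.31 where 3.50 was measured. In the juvenile libraries the sum put Ntf3 at 0.385 times adult (measured 0.116), Pdgfa at 0.790 (0.390), Pdgfd at 0.701 (0.536) and Pdgfb at 0.877 (0.80). These sums are descriptions without a test. The measured folds are of plain levels over the 6 classes. The TMM-scaled test over all ECs gave smaller aged differences for all 4: log2 1.19 for Ntf3, 0.34 for Pdgfd, 0.91 for Pdgfa and 1.45 for Pdgfb. How near a measured aged fold lay to its sum thus depends on the scale.

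Markers of blood cells moved with the groups in every class. The 13 haematopoietic markers summed to 34.6 to 71.0 CPM over the 6 classes in adult, 4.41 to 37.8 in juvenile, 65.7 to 162 in aged, 20.1 to 39.6 in PTH and 62.2 to 179 in alendronate libraries. The 7 erythroid markers summed to 153 to 334 in adult, 174 to 1244 in juvenile, 234 to 444 in aged, 24.4 to 198 in PTH and 65.1 to 1971 in alendronate libraries, with the highest value in 1 library of alendronate arterial-like cells. In type R-like cells the erythroid sum was 213 and 334 in adult, 370 and 444 in aged and 25.5 and 63.5 in PTH libraries. The platelet markers in sinusoidal-like cells summed to 78.2 and 91.6 in adult and 197 and 215 in juvenile libraries. The part of the erythroid markers in the results that follow was not tested. Levels in cells without a UMI of the mural, mesenchymal, platelet or haematopoietic list are given beside some of these results only. Such cells can still hold RNA of that kind, so these levels are descriptions and the part of those markers was not tested either.

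**Figure D5:**
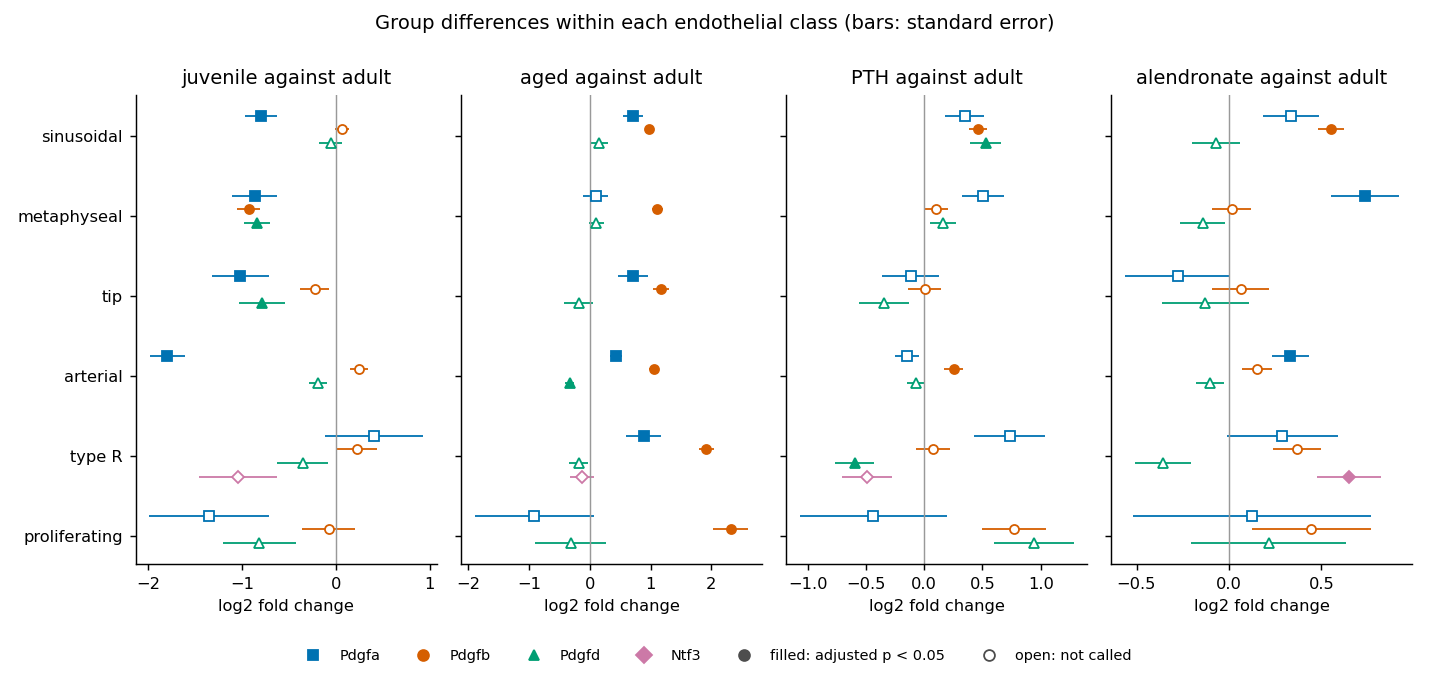
Log2 fold change against adult ± SE (horizontal, a different range in each panel) for 4 ligands within each of 6 endothelial classes, for juvenile, aged, PTH and alendronate libraries; filled symbols passed an adjusted p under 0.05. Pdgfb was higher in aged than in adult libraries in the 5 classes with both aged libraries, the proliferating-like symbol rests on 1 aged library, and Ntf3 could be tested in type R-like cells only.

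Pdgfb was higher with age in each of the 5 classes that had both aged libraries. In type R-like cells it was 133 and 143 CPM in juvenile, 122 and 118 in adult and 431 and 447 in aged libraries, so the aged pair stood alone at 3.78-fold the adult level (log2 1.92 ± 0.12, adjusted p = 3.08e-13). In arterial-like cells it was 172 and 179, 149 and 148, and 302 and 319 (aged log2 1.06 ± 0.08, adjusted p = 1.19e-13). In tip-like cells, a class that held only 22.2% of 843 cells picked by a UMI of the tip marker Apln and whose leading genes include the metaphyseal markers Ramp3 and Piezo2, it went from 117 and 113 to 262 and 243 (log2 1.17 ± 0.13, adjusted p = 8.48e-10). In metaphyseal-like cells it went from 92.9 and 96.1 to 214 and 198 (log2 1.11 ± 0.10, adjusted p = 1.15e-13), and in sinusoidal-like cells from 55.04 and 58.1 to 121 and 113 (log2 0.98 ± 0.07, adjusted p = 1.74e-14). The make-up of both classes differed: the Ptx3-led cluster, highest in Pdgfb of the sinusoidal-like clusters (119 CPM on average against 66.3 to 71.9), was 3.12% of adult and 25.1% of aged sinusoidal-like cells, and the Gm10800-led cluster was 26.9% of adult and 47.9% of aged metaphyseal-like cells. In the largest sinusoidal-like cluster alone the aged effect was 0.62 (adjusted p = 2.77e-05). In proliferating-like cells only the first aged library had 20 cells, so the call there, 1 of the 11 counted below, has no replicate check. That library held 69 Pdgfb UMIs of 243604 in 23 cells, and the aged library left out held 23 of 184981 in 17 cells. Pooled, the plain level was 215 CPM in aged (exact Poisson 95% interval 173 to 263, counting error only) and 49.7 in adult proliferating-like cells (35.7 to 67.5). The tip-like call was lost when classes were set by single marker UMIs (log2 0.77, adjusted p = 0.12), and the other classes kept theirs in all alternatives tried. Among all genes, aged and adult libraries were called for 64.0% in sinusoidal-like, 62.4% in metaphyseal-like, 47.4% in tip-like, 59.9% in arterial-like, 48.5% in type R-like and 20.6% in proliferating-like cells.

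Markers of other cells moved with age in type R-like cells too. Summed over 9 mesenchymal and osteoblast markers, the level was 65.6 and 78.6 CPM in adult and 140 and 178 in aged libraries. Summed over 7 megakaryocyte and platelet markers, whose cells store PDGFB, it was 50.3 and 60.9 in adult and 14.0 and 16.1 in aged libraries, where Gp9, Gp1bb and Treml1 were at 0. The 13 haematopoietic markers summed to 56.2 and 56.7 in adult and 108 and 162 in aged libraries, and the 4 chondrocyte markers to 7.03 and 11.6 and to 27.4 and 53.3. In type R-like cells without any UMI of the mesenchymal list, mean plain Pdgfb was 122 CPM in adult and 585 in aged libraries, without any UMI of the platelet list it was 119 and 501, and without any of the haematopoietic list 111 and 467. In all type R-like cells, pooled over libraries, plain Pdgfb was 117 CPM in adult and 472 in aged libraries. Cells without a UMI of a list can still hold RNA of that kind. The part of these lists in the rise was thus not tested, nor was that of the chondrocyte markers. The haematopoietic list also went from 50.8 and 52.9 in adult to 97.5 and 124 in aged arterial-like, from 54.3 and 56.3 to 112 and 150 in metaphyseal-like, from 34.6 and 59.2 to 79.1 and 108 in tip-like and from 52.2 and 55.6 to 84.4 and 102 in sinusoidal-like cells, where the 5 lymphatic markers went from 2.40 and 3.04 to 18.5 and 21.8. Without any UMI of the haematopoietic list, mean plain Pdgfb in adult and aged libraries was 147 and 343 in arterial-like, 96.4 and 241 in metaphyseal-like, 112 and 286 in tip-like and 50.9 and 153 in sinusoidal-like cells. The part of the haematopoietic and lymphatic markers in these classes was not tested. The part in the rise of any difference in how the aged libraries or tables were made was not tested and cannot be told apart from age.

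The rise of Pdgfb with age was larger in type R-like than in arterial-like and metaphyseal-like cells by a test of the difference itself, and type R-like cells were not tested against the other classes. The aged effect in type R-like cells exceeded that in arterial-like cells by log2 0.80 ± 0.13 (adjusted p = 1.6e-05) and that in metaphyseal-like cells by 0.75 ± 0.14 (adjusted p = 9.9e-05), where 2.49% and 4.05% of 12794 genes were called. Tip-like and metaphyseal-like cells did not differ in their aged effect on Pdgfb (log2 0.02 ± 0.15, adjusted p = 1). In neither comparison with type R-like cells did the difference for Pdgfa pass (0.40 ± 0.30 and 0.74 ± 0.35, adjusted p 0.67 and 0.308) or that for Pdgfd (0.09 ± 0.16 and -0.35 ± 0.19, adjusted p 0.916 and 0.426).

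The other ligands moved less with age within classes. Pdgfa was higher in aged than in adult arterial-like cells (log2 0.43 ± 0.10, adjusted p = 3.47e-04), though the difference was -0.07 (adjusted p = 0.522) when cells were clustered without integration and 0.29 (adjusted p = 0.13) in the largest cluster, and in sinusoidal-like cells (0.71 ± 0.17, adjusted p = 3.24e-04), where the call was lost without the first aged library (0.49, adjusted p = 0.057). Its calls in tip-like (0.71 ± 0.24, adjusted p = 0.014) and type R-like cells (0.89 ± 0.29, adjusted p = 0.012) were each lost without the first adult library (0.48 and 0.85) and without the second aged library (0.65 and 0.59), and both with DESeq2 (0.73 and 0.91). The tip-like call was also lost with single marker genes (1.13), and the type R-like call without integration (0.79) and with 15 components (0.30, adjusted p = 0.478). Pdgfd fell in aged arterial-like cells, from 183 and 174 to 144 and 142 CPM (log2 -0.33 ± 0.08, adjusted p = 3.72e-04), in all alternatives tried. Ntf3 in type R-like cells was 44.7 and 50.5 in adult and 39.0 and 44.5 in aged libraries, a difference of log2 -0.13 ± 0.20 that did not pass (adjusted p = 0.607). Of 19 tests of members within classes, 11 passed between aged and adult, 10 of them upwards, beside the 20.6% to 64.0% of all genes called per class given above, so the count is near the share over all genes.

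Between juvenile and adult libraries 7 of 19 such tests passed, all of them lower in juvenile, where 38.7% of all genes were called in sinusoidal-like, 22.9% in metaphyseal-like, 11.1% in tip-like, 14.7% in arterial-like, 3.25% in type R-like and 3.87% in proliferating-like cells. The largest was Pdgfa in arterial-like cells, 18.7 and 20.6 CPM in juvenile (17 and 21 UMIs) against 68.7 and 68.4 in adult libraries (log2 -1.79 ± 0.19, adjusted p = 8.43e-09), and it held in all alternatives. The mural markers in these cells summed to 3.91 and 4.38 CPM in juvenile and 39.1 and 89.8 in adult libraries, and without any UMI of that list mean plain Pdgfa was 18.98 in juvenile and 66.95 in adult arterial-like cells. Without any UMI of the haematopoietic list it was 20.3 and 68.7. Pdgfa was also lower in sinusoidal-like (-0.80 ± 0.17, adjusted p = 2.49e-04, but -0.51 and not called in the largest cluster), metaphyseal-like (-0.86 ± 0.24, adjusted p = 0.00589) and tip-like cells (-1.02 ± 0.30, adjusted p = 0.0197). The metaphyseal-like call was lost without the first juvenile (-0.53) or the first adult library (-0.62), with DESeq2 and in the largest cluster, and the tip-like call without either juvenile library (-0.99 and -1.04) or the second adult library (-0.77), with DESeq2 and with single marker genes. In type R-like cells, where the juvenile libraries held 4 and 11 Pdgfa UMIs, the difference was 0.41 ± 0.52 (adjusted p = 0.781). In metaphyseal-like cells Pdgfb (-0.93 ± 0.12, adjusted p = 5.55e-08) and Pdgfd (-0.84 ± 0.14, adjusted p = 4.75e-06) were lower in juvenile libraries as well. Without integration the values were -0.37 (adjusted p = 0.0516) and -0.21 (adjusted p = 0.371), neither called, and at resolution 0.5 Pdgfd was at -0.41 (adjusted p = 0.0523). Without any UMI of the haematopoietic list, mean plain Pdgfb in metaphyseal-like cells was 48.8 CPM in juvenile and 96.4 in adult libraries, and without any of the platelet list 54.7 and 96.5. There the Igfbp5-led cluster, lowest in both, made up 46.3% of juvenile and 23.3% of adult metaphyseal-like cells. Within the largest metaphyseal-like cluster alone, the one led by Ramp3, Pdgfd differed by -0.20 (adjusted p = 0.53). Pdgfd was also lower in juvenile tip-like cells (-0.79 ± 0.25, adjusted p = 0.028), a call lost without the first juvenile library (-0.56), the first adult (-0.83) or the second adult library (-0.75), and in 4 other alternatives. Ntf3 in type R-like cells, on 4 and 6 juvenile UMIs, was lower by a log2 of -1.04 ± 0.41, which did not pass (adjusted p = 0.202).

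The juvenile effect on Pdgfb in type R-like cells exceeded that in metaphyseal-like cells by log2 1.12 ± 0.25 (adjusted p = 0.00158, with 2.13% of all genes called), a call lost without the first (1.02, adjusted p = 0.11) or the second juvenile library (1.19, adjusted p = 0.058). The 2 juvenile libraries held 73 and 72 type R-like cells.

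The second question was how drugs that act on bone remodelling change the vessels. Over all ECs, 29.5% of genes were called between PTH and adult and 28.0% between alendronate and adult libraries. These contrasts share the adult libraries with each other and with the age contrasts. Pdgfa was 31.7 and 33.8 CPM in PTH and 32.6 and 36.3 in alendronate libraries, against 22.7 and 23.5 in adult (log2 0.53 ± 0.07 and 0.57 ± 0.07, adjusted p = 6.78e-06 and 2.52e-06). Pdgfb was 98.2 and 117 in PTH and 111 and 112 in alendronate libraries, against 79.7 and 82.5 (log2 0.45 ± 0.06 and 0.45 ± 0.06, adjusted p = 3.05e-06 and 2.71e-06). Pdgfd was 68.4 and 72.7 in PTH libraries (log2 0.46 ± 0.05, adjusted p = 6.1e-07) and 58.4 and 60.6 in alendronate libraries (0.19 ± 0.05, adjusted p = 0.011), against 51.4 and 53.0. The last call was lost without the second adult (0.16, adjusted p = 0.099) or the second alendronate library (0.16, adjusted p = 0.095). The drug libraries lay above both adult libraries for all 3 ligands. At adult levels per class, the class shares of the PTH libraries would have put Pdgfd at 1.40 times adult (1.40 measured), Pdgfa at 1.32 (1.47) and Pdgfb at 1.21 (1.40). For alendronate they would have put Pdgfd at 1.29 (1.14 measured), Pdgfa at 1.17 (1.48) and Pdgfb at 1.13 (1.35).

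Ntf3 passed the test with alendronate and not with PTH, and the difference between the drugs was not tested. Over all ECs it was 11.4 and 11.7 CPM in alendronate against 2.39 and 2.90 in adult libraries, 4.35-fold (log2 2.12 ± 0.17, adjusted p = 4.64e-09), and all alternatives kept this call. In PTH libraries it was 2.35 and 3.36 (log2 0.22 ± 0.21, adjusted p = 0.479), which overlapped the adult pair, and without the second PTH library the value was -0.15. At adult levels per class, the class shares of the alendronate libraries would have put Ntf3 at 2.79 times adult, and 4.37 was measured. The class shares of the PTH libraries would have put it at 1.66 times adult, and 1.12 was measured.

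Within type R-like cells, Ntf3 was 79.2 and 71.9 CPM in alendronate against 44.7 and 50.5 in adult libraries, 1.57-fold (log2 0.65 ± 0.17, adjusted p = 0.0349). The pairs did not overlap, but the call rested on every library: it was lost without the first (0.56) or second adult (0.76) and without the first (0.58) or second alendronate library (0.71), and in 5 of the other alternatives. The fold kept its direction in all 24 alternatives, between log2 0.49 and 0.76. The mesenchymal and osteoblast markers summed to 101 and 113 CPM and the haematopoietic markers to 78.2 and 88.5 in alendronate type R-like cells. Without any UMI of the first list, mean plain Ntf3 was 50.4 CPM in adult and 74.7 in alendronate libraries, and without any of the second 47.9 and 69.1. Type R-like cells without any mural marker UMI gave a mean plain level of 46.2 CPM in adult and 70.8 in alendronate libraries. In PTH libraries the level was 31.0 and 35.03, below both adult libraries, and did not pass (log2 -0.49 ± 0.22, adjusted p = 0.224).

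Of the 19 tests within classes, 4 passed between alendronate and adult libraries, all upwards, among 18.3% of all genes called in sinusoidal-like, 8.52% in metaphyseal-like, 3.94% in tip-like, 8.77% in arterial-like, 2.86% in type R-like and 1.22% in proliferating-like cells. Beside Ntf3, Pdgfb rose in sinusoidal-like cells, from 55.04 and 58.1 to 80.4 and 84.7 CPM (log2 0.55 ± 0.07, adjusted p = 1.27e-07), in all alternatives tried. There the platelet markers summed to 78.2 and 91.6 CPM in adult and 141 and 162 in alendronate libraries, and the haematopoietic markers to 52.2 and 55.6 and to 84.4 and 86.3. Among sinusoidal-like cells without any UMI of the platelet list, mean plain Pdgfb was 51.8 CPM in adult and 73.3 in alendronate libraries, and without any of the haematopoietic list 50.9 and 73.4. Pdgfa was higher in metaphyseal-like (0.73 ± 0.18, adjusted p = 0.00632) and arterial-like cells (0.33 ± 0.10, adjusted p = 0.0326). The metaphyseal-like call was lost without the second adult (0.54) or the first alendronate library (0.39), with DESeq2 (0.75), at resolution 0.5 (0.28), in the largest cluster (0.32), without integration (0.0628) and with single marker genes (0.0436, adjusted p = 0.952). In that class the Ramp3-led cluster was 49.8% of adult and 40.2% of alendronate cells, and the Gm10800-led 26.9% and 40.5%. The Igfbp5-led cluster, highest in Pdgfa, was 23.3% and 19.4%. Haematopoietic markers there summed to 54.3 and 56.3 CPM in adult and 84.4 and 103 in alendronate libraries. The part of make-up and markers was not tested. The arterial-like call was lost without any 1 of the 4 libraries (0.30 to 0.37) and in 6 other alternatives, down to 0.14 with single marker genes. The make-up of the arterial-like class moved with it: the Gja4-led cluster, lowest in Pdgfa, was 52.9% of adult and 36.6% of alendronate arterial-like cells, and the Gja5-led cluster 21.9% and 32.5%. Among arterial-like cells without any UMI of the haematopoietic list, mean plain Pdgfa was 68.7 CPM in adult and 87.4 in alendronate libraries. Pdgfd was at 75.3 and 77.7 in alendronate and 100 and 93.1 in adult type R-like cells, a difference that did not pass (-0.36 ± 0.15, adjusted p = 0.264).

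Between PTH and adult libraries, 4 of 19 tests passed, 3 of them upwards, among 10.7% of all genes called in sinusoidal-like, 12.0% in metaphyseal-like, 4.83% in tip-like, 8.07% in arterial-like, 6.14% in type R-like and 2.27% in proliferating-like cells. In sinusoidal-like cells Pdgfb went to 72.5 and 81.2 CPM (log2 0.46 ± 0.08, adjusted p = 3.24e-05) and Pdgfd rose by 0.53 ± 0.13 (adjusted p = 0.0048). Both calls were lost without the second PTH library (0.34 and 0.56). The Pdgfd call was also lost with DESeq2 (0.53), in the largest cluster (0.51), without integration (0.37) and with single marker genes (0.0342, adjusted p = 0.978). The mesenchymal and osteoblast markers in these cells summed to 32.0 and 38.6 CPM in adult and 41.4 and 45.5 in PTH libraries, and the haematopoietic markers to 52.2 and 55.6 and to 28.7 and 29.8. Without any UMI of the mesenchymal list mean plain Pdgfb was 51.1 in adult and 70.7 in PTH libraries and Pdgfd 16.0 and 23.4. In arterial-like cells Pdgfb was 161 and 188 (0.25 ± 0.08, adjusted p = 0.0473), and this call was lost in 17 of 24 alternatives, among them the fits without either juvenile, adult or aged library (0.25 to 0.26) and without the second PTH library (0.12). In type R-like cells Pdgfd was lower, 57.4 and 66.9 against 100 and 93.1 CPM (log2 -0.60 ± 0.17, adjusted p = 0.0322). That call was lost without any 1 of the 4 libraries (-0.75 to -0.53) and in 6 other alternatives, among them the fits without integration (-0.26) and with single marker genes (-0.10). In the same cells the mesenchymal and osteoblast markers summed to 65.6 and 78.6 CPM in adult and 134 and 172 in PTH libraries, and the chondrocyte markers to 7.03 and 11.6 and to 27.0 and 29.8. Without any UMI of the mesenchymal list, mean plain Pdgfd was 99.9 CPM in adult and 68.7 in PTH libraries, and without any of the haematopoietic list 93.8 and 55.1.

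The effect of PTH on Pdgfd in type R-like cells was lower than that in metaphyseal-like cells by log2 -0.74 ± 0.19 (adjusted p = 0.010, with 4.02% of all genes called). This call was lost without the first (-0.74) or second adult (-0.74) or the second PTH library (-0.80). The make-up of the type R-like class moved with it: the Timp4-led cluster, highest in Pdgfd, was 68.0% of type R-like cells in adult and 42.3% in PTH libraries, and the Tagln-led cluster, lowest in Pdgfd, went from 22.4% to 42.7%. In the Timp4-led cluster alone the effect of PTH was -0.34 (adjusted p = 0.53).

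Of the receptors, the 4 kinases that bind these ligands or their relatives averaged at most 4.01 CPM in any class, while the co-receptors Nrp1 (472 to 916 CPM on average in the 6 classes) and Sort1 (2.56 to 17.0), named here after their values were seen, were measured. Pdgfrb, the receptor of PDGFB and PDGFD, averaged 0 to 0.713 CPM over the 6 classes. Pdgfra, which binds PDGFA, averaged 0.307 to 4.01, with the highest mean in sinusoidal-like cells (4.01 ± 4.74, SD over libraries). Ntrk3 had 1 UMI in all classed cells, and Ntrk2, the receptor of the related BDNF, had 29, of which 24 were in type R-like cells. None of these 4 kinases passed the filter for the test between classes. Over all ECs Pdgfra was 0.999 and 0.966 CPM in adult and 5.61 and 5.27 in aged libraries (log2 2.44 ± 0.25, adjusted p = 1.44e-08). In sinusoidal-like cells it was 1.45 and 1.40 in adult and 13.0 and 12.8 in aged libraries, and the mean of 4.01 includes this aged pair. Mesenchymal cells carry Pdgfra, and their part in the rise was not tested. Nor was that of how the aged libraries were made, which cannot be told apart from age. Pdgfrb over all ECs was lower in juvenile than in adult libraries (log2 -2.14 ± 0.74, adjusted p = 0.0239), at 0.0625 and 0.191 against 0.499 and 0.664 CPM, on 1 and 3 against 9 and 11 UMIs. The mural markers, whose cells carry Pdgfrb, were lower in juvenile libraries too, as given above for arterial-like cells, and their part was not tested.

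Genes that process or hold the ligands were taken as 32 genes in 4 lists, 20 of which could be tested between classes and 24 over all ECs. In type R-like cells 4 passed upwards and 4 downwards of 20, beside 6.33% and 6.73% of all genes, with a median log2 of 0.18 against -0.02 over all genes. Mmp14, a membrane metalloproteinase, was lower by a log2 of -2.20 ± 0.14 (adjusted p = 1.8e-21), and so was Sulf2, a heparan sulfatase (-1.40 ± 0.19, adjusted p = 3.2e-09). In arterial-like cells 4 passed upwards and 3 downwards, beside 5.45% and 6.16% of all genes. There Pcsk5, a proprotein convertase, was higher by 5.89 ± 0.10 (adjusted p = 2e-48) and Plat, the tissue plasminogen activator that can release the active domain of PDGFC, by 1.58 ± 0.09 (adjusted p = 9.05e-23), while Sulf2 was lower (-1.05 ± 0.14, adjusted p = 6.3e-09). Sinusoidal-like cells were lower in Plat (-3.38 ± 0.13, adjusted p = 1.4e-31) and Pcsk5 (-2.04 ± 0.29, adjusted p = 1.52e-08) and higher in Sulf2 (1.43 ± 0.10, adjusted p = 5.8e-20), with 2 genes up and 4 down in all, beside 6.09% and 7.23% of all genes. Tip-like cells were higher in Mmp14 (1.42 ± 0.09, adjusted p = 4.8e-20) and Plat (1.08 ± 0.12, adjusted p = 1.9e-11), and lower in Pcsk5 (-1.42 ± 0.37, adjusted p = 0.0017), with 4 up and 3 down, beside 2.83% and 4.11%. Metaphyseal-like cells had 0 up and 4 down, beside 1.25% and 2.41%, among them Pcsk5 (-1.03 ± 0.27, adjusted p = 0.00145). Proliferating-like cells had 1 up and 1 down, beside 6.36% and 2.49%, the latter being Pcsk5 (-1.68 ± 0.54, adjusted p = 0.0108). Pcsk5 averaged 184 CPM in arterial-like cells and from 1.99 (sinusoidal-like) to 6.39 (type R-like) in the other classes. Its lower values outside arterial-like cells are thus set against a mean that holds the arterial-like level.

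Over all ECs, 14 of the 24 pathway genes rose and 4 fell in aged libraries, beside 37.3% and 36.5% of all genes. Sparc, a matrix protein that binds PDGFB, fell by 1.39 on the log2 scale (adjusted p = 3.4e-19), and Pcsk5 (0.98 ± 0.09, adjusted p = 5.2e-09) and Furin (0.65 ± 0.06, adjusted p = 8.2e-10), both convertases, rose. Ext2, the partner of Ext1 in making heparan sulfate, was lower (-0.60 ± 0.05, adjusted p = 8.73e-10). In juvenile libraries 7 were higher and 9 lower, beside 20.97% and 22.0% of all genes. Mmp14 (1.38 ± 0.06, adjusted p = 6.9e-14) and Ext1, which builds heparan sulfate (0.69 ± 0.07, adjusted p = 9.24e-08), were higher, and Pcsk5 (-1.65 ± 0.13, adjusted p = 1.09e-09) was lower. In PTH libraries 11 rose and 2 fell, beside 14.9% and 14.6% of all genes, among them Plat (1.21 ± 0.07, adjusted p = 7.9e-12) and Pcsk5 (0.99 ± 0.09, adjusted p = 3.4e-08), while Sulf2 fell (-0.77 ± 0.07, adjusted p = 2.8e-08). In alendronate libraries 4 rose and 5 fell, beside 14.9% and 13.1% of all genes, among them Pcsk5 (0.79 ± 0.09, adjusted p = 1.3e-06) and Ext1 (0.26 ± 0.07, adjusted p = 0.0130) upwards and Sparc (-0.36 ± 0.03, adjusted p = 2.4e-08) and Sulf2 (-0.28 ± 0.07, adjusted p = 0.0028) downwards. Beside these values of Pcsk5, which was highest in arterial-like cells, the share of arterial-like cells was 5.97% and 6.60% in juvenile, 13.4% and 13.5% in adult, 31.3% and 32.1% in aged, 19.9% and 21.2% in PTH and 19.1% and 18.7% in alendronate libraries, and its part in the change was not tested.

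Genes whose pattern was most like that of each ligand were found by Pearson's r over 59 sums of class and library on log2(CPM + 1), among 6706 genes with a mean of at least 20. The sums share libraries and cells of common origin, so r is a description. For Pdgfd they were Sox17, an arterial transcription factor (r = 0.959), Slc9a3r2 (0.935), Podxl (0.932), Ceacam1 (0.926) and Adam15 (0.921). Sox17 was on the arterial marker list used here to name classes, so its r is not independent of them. For Ntf3 they were Mustn1 (0.917), Aqp7 (0.905), Timp4 (0.905), Meox2 (0.897) and Car8 (0.891). Of these, Aqp7 and Timp4 were type R markers used here, and Mustn1 was also among the leading genes of the mural cells set aside. For Pdgfb they were Ralgapa1 (0.920), Map4k3 (0.907), Fgd5 (0.883), Mbnl1 (0.874) and Rapgef2 (0.868), and for Pdgfa Lmo2 (0.797), Sema3g (0.784), Tmem184b (0.779), Synpo (0.779) and Emp2 (0.777). Sema3g was on the same arterial marker list as Sox17. Among the members themselves, Pdgfa and Pdgfd were most alike (r = 0.749), and Ntf3 reached at most 0.381, with Pdgfb.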

How the data were processed

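The authors deposited 10 tables, 1 a library, of raw UMI counts, made with UMI-tools 1.1.2, STAR 2.7.10a and featureCounts 2.0.3 on mm10 per the labels. The annotation release and strand setting are not given in the sources used here. Cells with 500 to 6000 genes and under 25% mitochondrial UMIs were kept. Libraries were integrated and clustered with Seurat 5.3.0 (2000 variable genes without the members and their pathway genes, 30 components, resolution 0.8). Clusters were named from marker lists, and those of other cell types were set aside. The highest doublet scores were removed only in an alternative. UMIs were summed per class and library, for at least 20 cells, and tested with edgeR 4.0.16 (quasi-likelihood, TMM, Benjamini-Hochberg over all genes tested). DESeq2 1.42.0 was an alternative, beside other resolutions, 15 components, no integration, stricter cell filters, classes from single marker genes, leaving out each library, and the replicate block. The largest cluster per class and the fit without both aged libraries were added after seeing the data. Scripts were tested on simulated counts.

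The members and gene lists were chosen with earlier results of these data known. Pathway genes were named where they passed the test with a mean of at least 20 counts-per-million (CPM), at most 4 per comparison, in order of the size of the change, and some that the rule names are not reported here. Library totals ran from 10653583 to 28419323 UMIs, and intervals and floors cover counting error only. Replicate numbers did not pair the samples: same-numbered libraries correlated in their deviations by -0.0139 to 0.0443 over 15057 genes.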

Additional observations from a re-analysis of the deposited data

Results flagged for a closer look

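Differences between classes in the response of a ligand to the same contrast were looked at for Pdgfa, Pdgfb and Pdgfd in 36 tests, and 4 passed, beside 3 to 518 of 12794 genes called per comparison. The aged effect on Pdgfb in type R-like cells was larger than in arterial-like cells by log2 0.80 and than in metaphyseal-like cells by log2 0.75, and both held in every alternative tried. The juvenile effect on Pdgfb in type R-like cells lay above that in metaphyseal-like cells by log2 1.12, a value that rests on 145 juvenile type R-like cells. The effect of PTH on Pdgfd in type R-like cells lay below that in metaphyseal-like cells, with a difference of log2 -0.74. The last 2 were lost in several alternatives, given below.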

How the results depend on the processing

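Over all ECs and between classes most calls kept their direction and side of the threshold. Without integration, type R-like cells passed the log2 limit of 1 against the other classes for Pdgfb (1.37) and Pdgfd (1.35), as they did with the largest cluster of each class alone (1.19 and 1.27). Over all ECs, the effect of PTH on Ntf3 ranged from -0.15 (without the second PTH library, where it reversed) to 0.37 with 1 library left out. The effect of alendronate on Pdgfd was 0.20 with DESeq2 (adjusted p = 0.0778) and 0.16 to 0.21 with 1 library left out. Over all ECs, the aged effect on Pdgfd ranged from 0.30 to 0.69 over the alternatives, and from 0.30 to 0.36 with 1 library left out. Pdgfa in aged arterial-like cells reversed to -0.0749 without integration.

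The juvenile difference for Pdgfb between type R-like and metaphyseal-like cells was 0.77 at resolution 0.5, 0.91 with 15 components, 0.61 without integration, 0.94 with classes from single marker genes, 0.95 in the largest clusters and 1.02 to 1.19 with 1 library left out. The PTH difference for Pdgfd was -0.38 without integration, -0.0224 with single marker genes, -0.63 in the largest clusters and -0.80 to -0.73 with 1 library left out.

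Of 19 tests within classes, 7 passed for juvenile mice, and 4 did with DESeq2, at resolution 0.5, without integration and in the largest clusters each (4 to 7 with 1 library left out). For aged mice 11 passed, and 6 without integration (9 to 11). For PTH 4 passed, 1 each with DESeq2, without integration, with single marker genes and in the largest clusters, and 2 without the highest doublet scores (0 to 5). For alendronate 4 passed, 1 with DESeq2 and 2 in the largest clusters (1 to 4). With the replicate block the counts were 7, 11, 5 and 4, and no call over all ECs changed. The counts moved by over 1.5 times without the first juvenile library (4), for PTH without the second adult (2) or second PTH library (0), and for alendronate without the first (2) or second adult (1) or the first (1) or second alendronate library (2). A library left alone in its group is assumed to vary like the other groups. No tip-like class was found at resolution 0.5 or without integration, so those values could not be had and the counts under these settings rest on fewer tests, without the 2 tip-like calls each of juvenile and aged mice and, without integration or with single marker genes, without the aged proliferating-like call.

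Shares of cells depend on depth: thinned to 2000 UMIs and without thinning, Ntf3 was seen in 7.24% and 11.1% of type R-like, Pdgfd in 27.2% and 42.1% and Pdgfa in 11.9% and 19.1% of arterial-like cells, and Pdgfb, not thinned, in 36.0% of type R-like cells. Where these values moved, the cause was not tested beyond depth itself.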
